A study of Mus musculus with 10 samples.

Results

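The 9 genes described here, Marco, Siglecf, Ear1, Ear2, Pparg, Mrc1, Itgax, Fabp1 and Krt79, are ones that alveolar macrophages of the mouse lung express, and they were taken by symbol from the 47333 genes of the deposited table. RNA came from the right middle lung lobe of 10 C57BL/6J mice aged 12 weeks that received no treatment, 5 labelled KO for Bpifb1 and 5 labelled WT. The KO group held 1 male (replicate 1) and 4 females. The WT group held 2 males (replicates 2 and 3) and 3 females. The genotypes shared cages, and the labels do not describe the KO allele. Replicate numbers only name mice and pair none, and because the labels do not say that each library came from a separate animal, the p-values measure the spread between libraries. The series was designed to test how loss of Bpifb1, which encodes a secreted airway protein, changes expression in the lung.

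Alveolar macrophages live on the air side of the alveolus, where they take up inhaled particles and clear spent surfactant. They settle in the lung around birth, and GM-CSF and TGF-beta signalling switch on the nuclear receptor PPAR-gamma, which sets up their lipid-handling program. They carry scavenger and lectin receptors such as Marco and Mrc1, the latter also found on interstitial macrophages, and the combination of Siglecf with Itgax marks them off from other lung macrophages. In whole lung RNA, fewer cells of a type and less RNA per cell cannot be told apart.

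Ear1 and Ear2 are shown first because their near identity sets how their counts can be read. Both encode eosinophil-associated ribonucleases of the RNase A family. Ear1 lies on chromosome 14 from 43818765 to 43875517 on the minus strand and Ear2 on chromosome 14 from 44102654 to 44103534 on the plus strand (GRCm38, GENCODE M21). The stretch of their coding sequences (GENCODE M21) that holds the most differences reads as follows, with capitals at the bases that differ or are present in only 1 of the genes. It covers coding bases 68 to 364 of 465 in Ear1 and 68 to 367 of 468 in Ear2, without the stop codon, and 21 of the 23 differing columns.
Ear1: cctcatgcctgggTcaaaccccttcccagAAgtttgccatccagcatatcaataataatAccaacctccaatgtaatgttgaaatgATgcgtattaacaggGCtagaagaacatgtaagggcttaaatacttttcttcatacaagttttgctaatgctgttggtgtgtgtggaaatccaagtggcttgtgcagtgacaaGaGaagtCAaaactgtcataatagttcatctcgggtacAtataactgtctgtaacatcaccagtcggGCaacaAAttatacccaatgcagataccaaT
Ear2: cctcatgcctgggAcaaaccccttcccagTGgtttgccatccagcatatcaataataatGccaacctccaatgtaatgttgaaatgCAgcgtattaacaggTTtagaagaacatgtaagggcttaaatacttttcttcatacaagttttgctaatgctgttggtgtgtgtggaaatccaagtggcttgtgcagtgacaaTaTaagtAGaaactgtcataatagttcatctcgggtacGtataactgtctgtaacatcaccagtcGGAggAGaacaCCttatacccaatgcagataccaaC
Over the whole coding sequences, 445 of 468 aligned columns were identical (95.1%), 20 were substituted and 3 were present in Ear2 alone, and the longest identical run was 96 bases, longer than the 50-base reads. Over their transcripts, 57.4% of the 50-base windows of Ear1 (381 of 664) and 41.5% of those of Ear2 (278 of 670) also occurred in another gene. The other genes holding them were each other, Ear6, Ear10, Ear-ps2 and Ear-ps9. Those 4 held 29, 0, 0 and 5 counts in all 10 mice together, against 4964 for Ear1 and 14685 for Ear2. Reads from a shared window had to be divided by the counting program, so the split between Ear1 and Ear2 is uncertain, and both genes had fractional counts in 10 of 10 mice.

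The 250 bases before the transcription start of the pair, from RefSeq (GRCm38.p6), are shown because the near identity runs on past the coding sequence. Capitals mark differing bases and unaligned ends.
Ear1 (chr14:43819640-43819889, minus strand): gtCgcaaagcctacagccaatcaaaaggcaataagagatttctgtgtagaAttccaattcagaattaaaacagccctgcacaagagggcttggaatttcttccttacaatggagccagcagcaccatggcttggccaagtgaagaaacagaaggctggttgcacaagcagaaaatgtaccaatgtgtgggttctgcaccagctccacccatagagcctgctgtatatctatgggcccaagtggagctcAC
Ear2 (chr14:44102404-44102653, plus strand): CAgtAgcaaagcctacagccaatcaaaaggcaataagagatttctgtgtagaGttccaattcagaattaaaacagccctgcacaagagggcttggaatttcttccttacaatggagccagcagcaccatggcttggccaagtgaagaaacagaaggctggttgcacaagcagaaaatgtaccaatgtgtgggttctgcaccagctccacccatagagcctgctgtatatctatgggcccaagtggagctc
Of 248 aligned bases, 246 were identical (99.2%). The same stretch before Fabp1 (chr6:71199629-71199878, plus strand), the smallest gene of the group by exon length, has capitals at GAGGAA, the core letters bound by PU.1, a myeloid transcription factor.
Fabp1: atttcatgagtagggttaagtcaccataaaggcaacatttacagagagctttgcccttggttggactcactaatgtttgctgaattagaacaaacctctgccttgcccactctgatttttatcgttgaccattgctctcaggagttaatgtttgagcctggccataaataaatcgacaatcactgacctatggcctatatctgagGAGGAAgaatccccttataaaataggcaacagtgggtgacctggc
The 9 genes had 11 RefSeq promoters of 300 bases, more than 1 of them for Pparg. GAGGAA on either strand occurred in 5 of the 11 (of Marco, Mrc1, Fabp1, Pparg and Siglecf) and in 28.3% of all 32851 such promoters. Also on either strand, the nuclear receptor letters AGGTCA occurred in 3 of the 11 (of Fabp1 and Pparg) and in 16.3% of all. TTGCNNAA, the letters of a C/EBP site, occurred in 4 of the 11 and in 10.8% of all. These were promoters of Fabp1, Pparg, Ear1 and Ear2, the last 2 near copies of each other. TATAAA occurred in 2 of the 11 (of Fabp1 and Pparg) and in 13.6% of all. The direct repeat bound by PPAR dimers, a pair of AGGTCA copies with 1 base between them and so overlapping the single letters above, occurred in none of the 9 and in 0.0396% of all. These matches describe letters in the windows and name no binding site.

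Deposited totals ran from 21357424 to 28321294 estimated counts per mouse, so 3 counts stood for 0.106 to 0.14 counts per 1000000 counts (CPM). Bpifb1 itself was at 0.614 ± 0.462 CPM in KO lungs and 59.7 ± 23.6 CPM in WT lungs (SD, n = 5 each), a two-sided exact permutation p of 0.0079, the smallest the 252 splits allow. The summed level of 4 Y-linked genes was 118 to 135.5 CPM in the labelled males and at most 0.148 CPM in the labelled females. Xist, the RNA that silences an X chromosome in females, was at 1.78 CPM in KO replicate 5, labelled female, against 274 to 407 CPM in the other 6 females and 1.29 to 1.73 CPM in the males. That library stands apart, and the results are therefore also given without it where its removal matters.

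None of the 9 genes passed an adjusted p of 0.05 between KO and WT lungs in edgeR's quasi-likelihood test with sex as a covariate, and none passed it between the sexes. All 9 passed the filter on low counts. Across the 18024 genes tested, 4 (0.0222%) were called for genotype and 105 (0.583%) for sex. The adjusted p (edgeR, Benjamini-Hochberg over all genes tested) ran from 0.205 for Ear1 to 0.945 for Siglecf. By the fitted values, 4 of the 9 were higher in KO lungs (Mrc1, Marco, Itgax and Siglecf) and 5 were lower (Ear1, Krt79, Fabp1, Ear2 and Pparg), with a median log2 fold change of -0.05. Over all genes tested the median was -0.0027, with 8891 higher and 9133 lower. The CPM ranges of KO and WT overlapped for each of the 9, while 1.88% of tested genes had ranges that did not.

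**Figure D1:**
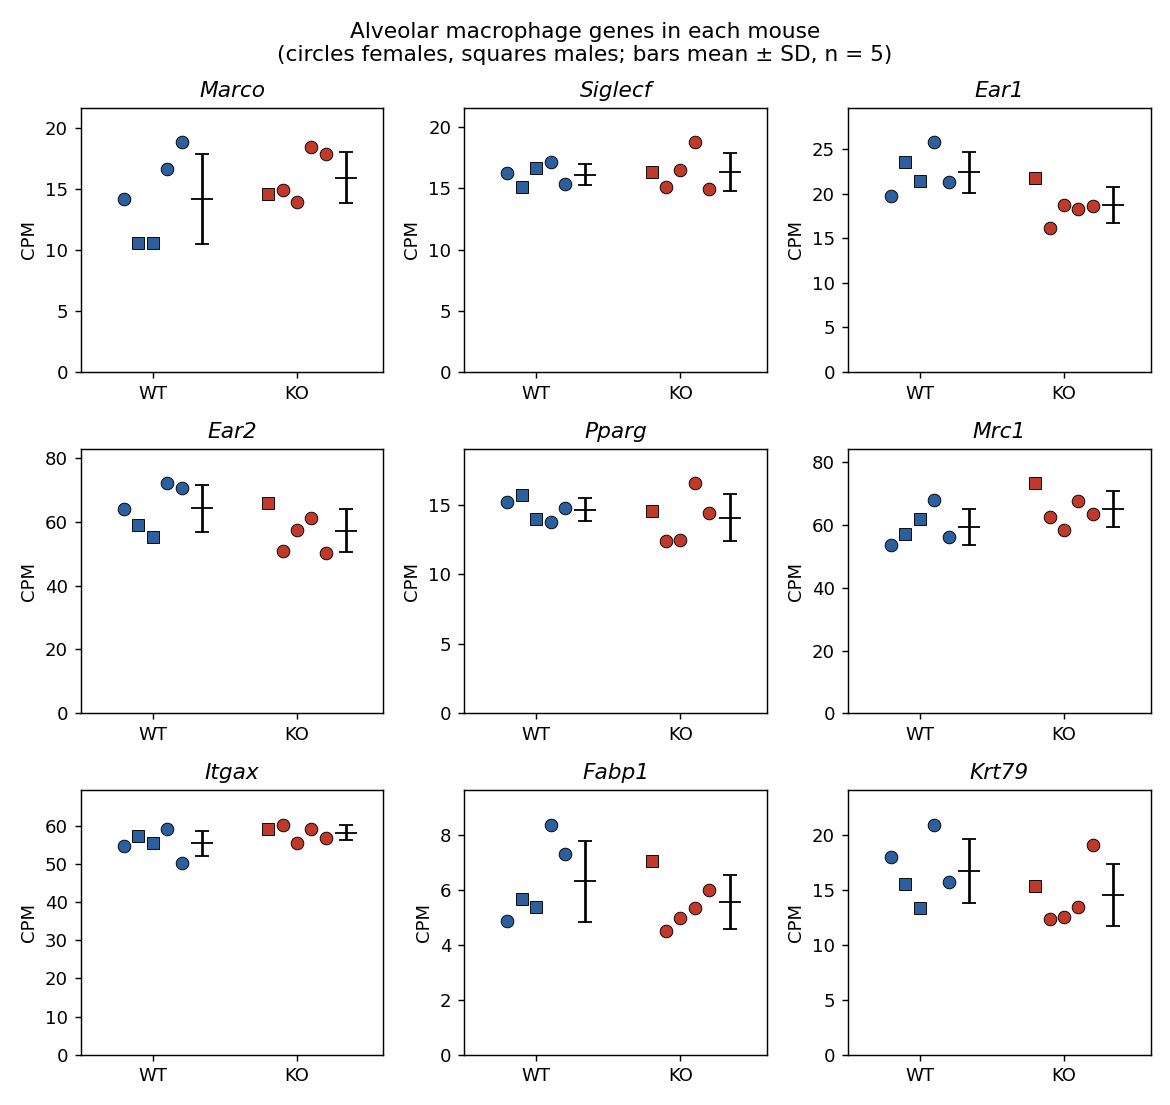
CPM (y axes, from 0) of the 9 genes in each WT (blue) and KO (red) mouse, circles for females and squares for males, with the mean and SD of 5 mice as bars. KO and WT points overlap in every panel, and the 2 WT males at 10.6 CPM are the lowest points for Marco.

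Of the surface receptors, Mrc1, the mannose receptor CD206 that binds and takes up mannosylated glycoproteins, had the largest positive difference. In WT replicates 1 to 5 Mrc1 (chromosome 2, 14229392 to 14332057, plus strand) was at 53.6, 57.0, 61.9, 67.8 and 56.3 CPM, and in KO replicates 1 to 5 at 73.2, 62.5, 58.4, 67.7 and 63.5 CPM. The KO male was the highest of all 10 mice and WT replicate 1 the lowest, and the ranges overlapped between 58.4 and 67.8. The means were 65.0 ± 5.65 CPM in KO and 59.3 ± 5.63 CPM in WT (SD, n = 5 each). The fitted log2 fold change of Mrc1 was 0.15 (SE 0.07, 95% interval -0.0055 to 0.30), with an edgeR adjusted p of 0.309. Without WT replicate 4, the highest WT mouse, it was 0.23 with an adjusted p of 0.096, and without KO replicate 1, the highest KO mouse, it was 0.09 with an adjusted p of 0.664. In females alone it was 0.089. Leaving out KO replicate 1, the only KO male, compares genotypes in the same females, so those results are not separate.

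Marco, a class A scavenger receptor that binds bacteria and inhaled particles, varied most among the receptors. It lies on chromosome 1 from 120474538 to 120505024 on the minus strand. WT replicates 1 to 5 gave 14.2, 10.6, 10.6, 16.6 and 18.9 CPM, and KO replicates 1 to 5 gave 14.6, 14.9, 13.9, 18.4 and 17.9 CPM. The WT range enclosed the KO range, and the 2 lowest values were the WT males. Marco averaged 15.9 ± 2.07 CPM in KO and 14.2 ± 3.67 CPM in WT (SD, n = 5 each), a fitted log2 fold change of 0.10 (SE 0.11, 95% interval -0.14 to 0.35; edgeR adjusted p 0.68). The sign turned when females alone were fitted (-0.03). Leaving out KO replicate 1, the only KO male, compares genotypes in the same females and gave -0.029. The log2 fold change of Marco was 0.062 without WT replicate 1, 0.16 without KO replicate 3 or without the sex covariate, and 0.20 without WT replicate 5.

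Siglecf, a lectin that binds sialic acids and is shared by alveolar macrophages and eosinophils, lies on chromosome 7 from 43351341 to 43359531 on the plus strand. Its WT values for replicates 1 to 5 were 16.3, 15.1, 16.6, 17.2 and 15.4 CPM, and its KO values 16.3, 15.1, 16.5, 18.8 and 14.9 CPM. The 2 groups lay nearly on top of each other, with KO replicate 4 above the WT range and KO replicate 5 just below it. The fitted log2 fold change was 0.015 (SE 0.08), with a 95% interval of -0.15 to 0.18 and an edgeR adjusted p of 0.945. Its sign turned without KO replicate 4 (-0.035), without WT replicate 2 (-0.0052) and without WT replicate 5 (-0.01), and no setting took it above 0.044.

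Itgax encodes CD11c, the alpha chain of a beta2 integrin, which dendritic cells also carry, and it was the steadiest of the 9. It lies on chromosome 7 from 128129547 to 128150657 on the plus strand. WT replicates 1 to 5 gave 54.7, 57.4, 55.6, 59.2 and 50.4 CPM, and KO replicates 1 to 5 gave 59.3, 60.4, 55.6, 59.2 and 57.0 CPM. WT replicate 5 was the lowest and KO replicate 2 the highest, with most mice of both groups between 55 and 60. The log2 fold change of Itgax was 0.08 (SE 0.05, 95% interval -0.03 to 0.19; edgeR adjusted p 0.457), and without WT replicate 5 it was 0.041. Of its 50-base windows 8.02% (384 of 4790) were shared with Itgad, a neighbouring beta2 integrin gene that was itself at 1.08 ± 0.211 CPM in KO and 1.48 ± 0.239 CPM in WT (SD, n = 5 each).

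The ribonuclease Ear1 had the smallest unadjusted p of the 9. WT replicates 1 to 5 gave 19.8, 23.6, 21.5, 25.8 and 21.3 CPM, and KO replicates 1 to 5 gave 21.8, 16.1, 18.7, 18.3 and 18.7 CPM. The 4 KO females lay below every WT mouse, and the KO male lay within the WT range. Ear1 averaged 18.7 ± 2.03 CPM in KO and 22.4 ± 2.34 CPM in WT (SD, n = 5 each). On the log2 scale the fitted difference was -0.24 (SE 0.08, 95% interval -0.42 to -0.05). Its unadjusted edgeR p was 0.0146 and its adjusted p 0.205, so it did not pass, and 17% of all tested genes had an unadjusted p under 0.05. Over 19 other settings, 1 of which counted the Ear genes as 1, the log2 fold change stayed between -0.32 and -0.15, with adjusted p between 0.138 and 0.381. The value nearest to 0 was that without WT replicate 4.

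Ear2 gave 64.0, 59.0, 55.1, 72.0 and 70.6 CPM in WT replicates 1 to 5, and 65.9, 50.7, 57.3, 61.2 and 50.3 CPM in KO replicates 1 to 5. WT replicates 4 and 5 lay above all KO mice, KO replicates 2 and 5 lay below all WT mice, and the rest were mixed. The means were 57.1 ± 6.73 CPM in KO and 64.2 ± 7.27 CPM in WT (SD, n = 5 each). The fit placed Ear2 at -0.18 on the log2 scale (SE 0.09, 95% interval -0.38 to 0.03; edgeR adjusted p 0.361). In females alone it was -0.33 (edgeR adjusted p 0.173). Without KO replicate 1, the only KO male, the genotypes are compared in the same females, and it was again -0.33 (edgeR adjusted p 0.191). When Ear1, Ear2 and their relatives were counted as 1 gene, so that the division of shared reads no longer mattered, the log2 fold change was -0.19 (edgeR adjusted p 0.278). Ear1 made up 24.7 ± 1.48% of the summed Ear1 and Ear2 CPM in KO and 26.0 ± 2.46% in WT (SD, n = 5 each).

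Pparg, the nuclear receptor that directs the alveolar macrophage program and is also expressed by alveolar type 2 cells and fat cells, lies on chromosome 6 from 115360951 to 115490399 on the plus strand. WT replicates 1 to 5 gave 15.2, 15.7, 13.9, 13.7 and 14.7 CPM, and KO replicates 1 to 5 gave 14.5, 12.4, 12.5, 16.5 and 14.4 CPM. The KO values spread on both sides of the WT values. For Pparg the fitted log2 fold change was -0.05 (SE 0.09, 95% interval -0.24 to 0.14; edgeR adjusted p 0.809). It was -0.014 without KO replicate 2, -0.016 without KO replicate 3, -0.029 without WT replicate 1 and -0.11 without KO replicate 4.

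Fabp1, the liver-type fatty acid binding protein that carries long-chain fatty acids inside cells, lies on chromosome 6 from 71199827 to 71205023 on the plus strand and had the lowest CPM of the 9. WT replicates 1 to 5 gave 4.86, 5.67, 5.38, 8.38 and 7.32 CPM, and KO replicates 1 to 5 gave 7.05, 4.51, 4.97, 5.34 and 6.01 CPM. WT replicates 4 and 5 were the 2 highest, and the other WT mice lay among the KO mice. Its fitted log2 fold change was -0.18 (SE 0.17, 95% interval -0.54 to 0.18; edgeR adjusted p 0.604). Single mice moved it in both directions. It was -0.037 without WT replicate 4 (edgeR adjusted p 0.927), -0.11 without WT replicate 5, -0.12 without KO replicate 2 and -0.28 without WT replicate 1. In females alone it was -0.40 (edgeR adjusted p 0.345). Leaving out KO replicate 1, the only KO male, compares genotypes in the same females and also gave -0.40.

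Krt79, a type II keratin that is mainly known from skin, lies on chromosome 15 from 101929332 to 101940324 on the minus strand. WT replicates 1 to 5 gave 18.02, 15.5, 13.4, 20.9 and 15.7 CPM, and KO replicates 1 to 5 gave 15.4, 12.3, 12.5, 13.4 and 19.1 CPM. KO replicate 5, the mouse with little Xist, was the highest KO mouse and the second highest of all. The log2 fold change of Krt79 was -0.22 (SE 0.14, 95% interval -0.53 to 0.09; edgeR adjusted p 0.448). Without WT replicate 4, the highest mouse, it was -0.12 with an adjusted p of 0.682, and without KO replicate 5 it was -0.32 with an adjusted p of 0.324. In females alone it was -0.34 (edgeR adjusted p 0.395). Without KO replicate 1, the only KO male, the genotypes are compared in the same females, and it was again -0.34 (edgeR adjusted p 0.39).

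**Figure D2:**
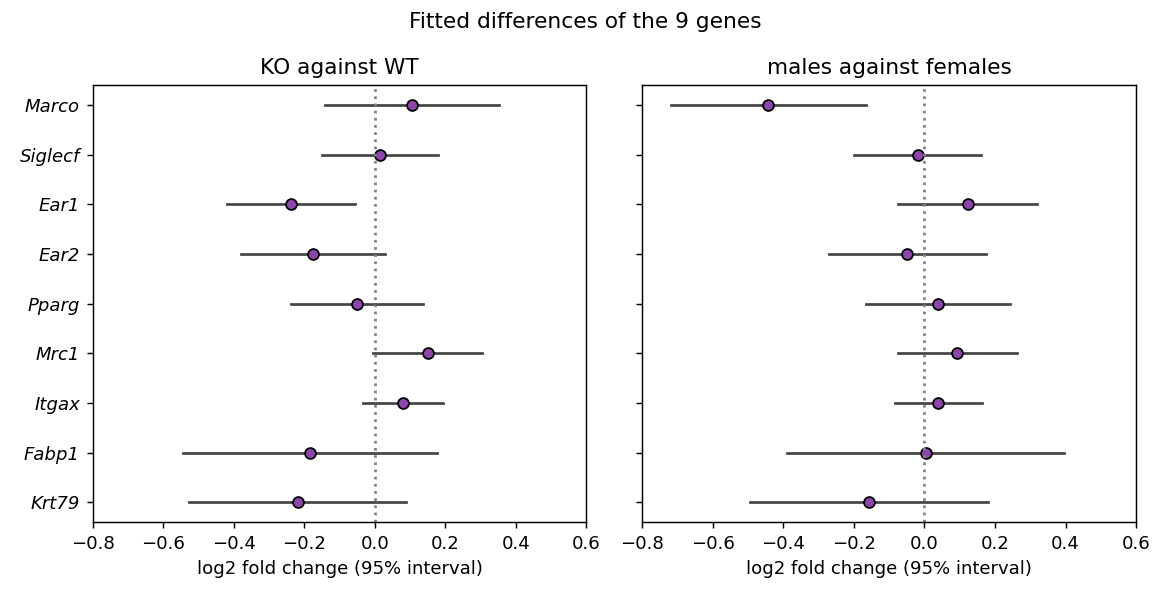
Fitted log2 fold changes of the 9 genes (points) with 95% intervals (lines), for KO against WT on the left and males against females on the right. In the left panel the interval of Ear1, -0.42 to -0.05, is the one that leaves out 0, and in the right panel that of Marco, -0.72 to -0.17.

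Marco differed most between the sexes. It was at 14.6 CPM in the KO male and at 10.6 CPM in each WT male, and at 13.9 to 18.9 CPM in the 7 females, with a median of 16.6. The ranges met only through the KO male, which lay above the lowest females. Marco averaged 11.9 ± 2.31 CPM in males (SD, n = 3) and 16.4 ± 2.07 CPM in females (SD, n = 7). The log2 fold change of males against females, with genotype as a covariate, was -0.44 (SE 0.13, 95% interval -0.72 to -0.17). Its unadjusted edgeR p was 0.0042 and its adjusted p 0.136, so it was not called, and 15.1% of tested genes had an unadjusted p under 0.05. Over the other settings it stayed between -0.65 and -0.37, with adjusted p from 0.0594 (DESeq2) to 0.331. Without KO replicate 5 it was -0.43, with an adjusted p of 0.191.

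The other 8 genes had sex differences between -0.16 (Krt79) and 0.12 (Ear1) on the log2 scale, each with a 95% interval that included 0. Of the 9, 5 were higher in males and 4 lower, with a median log2 fold change of 0.0033 beside -0.0064 over all genes tested. For none of the 9 did the male and female ranges stay apart, against 4.81% of tested genes. The signs for Siglecf, Ear2 and Fabp1 turned under at least 1 other setting, and their values there are given with the processing. With 1 KO male, no test of whether genotype acts differently in males and females was run.

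Per kilobase of exon, which allows levels of different genes to be compared, Ear2 stood highest at 84.3 ± 10.6 CPM per kilobase (SD, n = 10). Ear1 followed at 28.2 ± 3.88, a 2.99-fold lower mean, with the ranges apart in all 10 mice. Because the split of shared reads between Ear1 and Ear2 is uncertain, the level of each and that fold are uncertain too. Itgax came next at 11.8 ± 0.614 CPM per kilobase, with its range again apart from that of Ear1. Below it came Fabp1 (10.8 ± 2.26), Mrc1 (9.76 ± 0.959), Marco (7.82 ± 1.54), Siglecf (5.82 ± 0.424), Pparg (4.86 ± 0.441) and Krt79 (3.29 ± 0.614), in CPM per kilobase with SD over 10 mice. From Itgax down, the ranges of neighbours in this order overlapped, although Siglecf exceeded Pparg and Pparg exceeded Krt79 in each of the 10 mice.

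**Figure D3:**
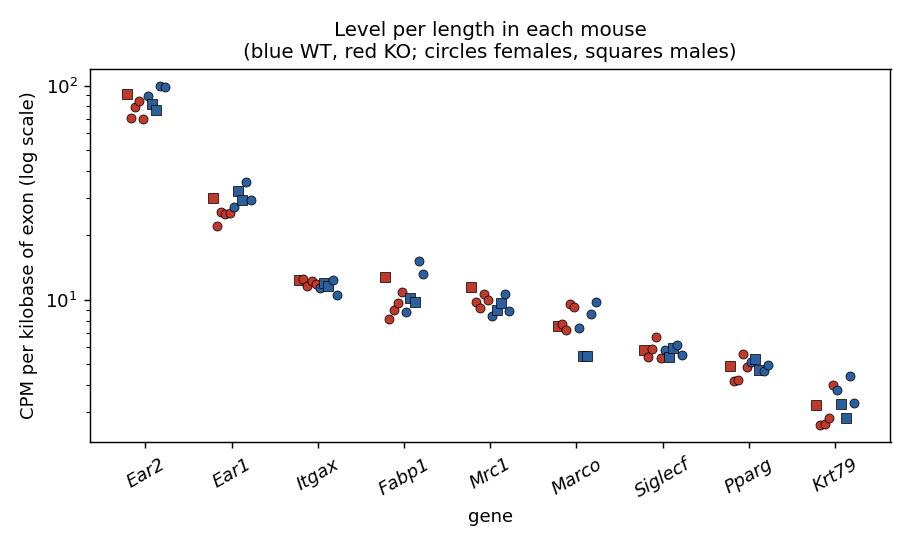
CPM per kilobase of exon (log axis) of the 9 genes in each mouse, ordered by mean, with WT in blue, KO in red, circles for females and squares for males. Ear2 and Ear1 stand apart from the other 7 genes, whose ranges run into each other. The split of shared reads between Ear2 and Ear1 is uncertain.

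Spread across mice differed among the genes. The coefficient of variation of CPM over the 10 mice was 5.19% for Itgax, 7.29% for Siglecf, 9.07% for Pparg and 9.83% for Mrc1, all below the median of 10.6% over all genes tested. It was 12.5% for Ear2, 13.8% for Ear1, 18.7% for Krt79, 19.7% for Marco and 20.97% for Fabp1. WT replicate 4 was the highest of the 10 mice for 4 genes (Ear1, Ear2, Fabp1 and Krt79), and KO replicate 2 was the lowest for 4 (Ear1, Pparg, Fabp1 and Krt79). Summed over the 9 genes, the level was 249 to 288 CPM in KO mice and 254 to 301.6 CPM in WT mice.

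Of the 36 pairs among the 9 genes, 27 had a positive and 9 a negative Pearson correlation of log2 CPM over the 10 mice, with a median of 0.26, and none passed after Benjamini-Hochberg adjustment over the pairs. The closest pair was Ear1 with Fabp1 at r = 0.76 (permutation p 0.011, adjusted 0.289; Spearman rho 0.68, permutation p 0.035, adjusted 0.585), which fell to 0.42 without the 2 mice farthest from the median of Ear1. Ear2 with Fabp1 had r = 0.71 (permutation p 0.0241, adjusted 0.289; rho 0.56, permutation p 0.0966, adjusted 0.696), and 0.78 without the 2 farthest mice. Mrc1 with Itgax had r = 0.69 (permutation p 0.0234, adjusted 0.289; rho 0.77, permutation p 0.0131, adjusted 0.47), and 0.70 without the 2 farthest mice. Ear1 with Ear2, which share reads, had r = 0.68 (permutation p 0.0322, adjusted 0.29; rho 0.60, permutation p 0.0727, adjusted 0.655) and 0.33 without the 2 farthest mice. The size of that relation and of Ear1 with Fabp1 over all mice therefore rests in part on the mice at the ends of the range of Ear1.

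**Figure D4:**
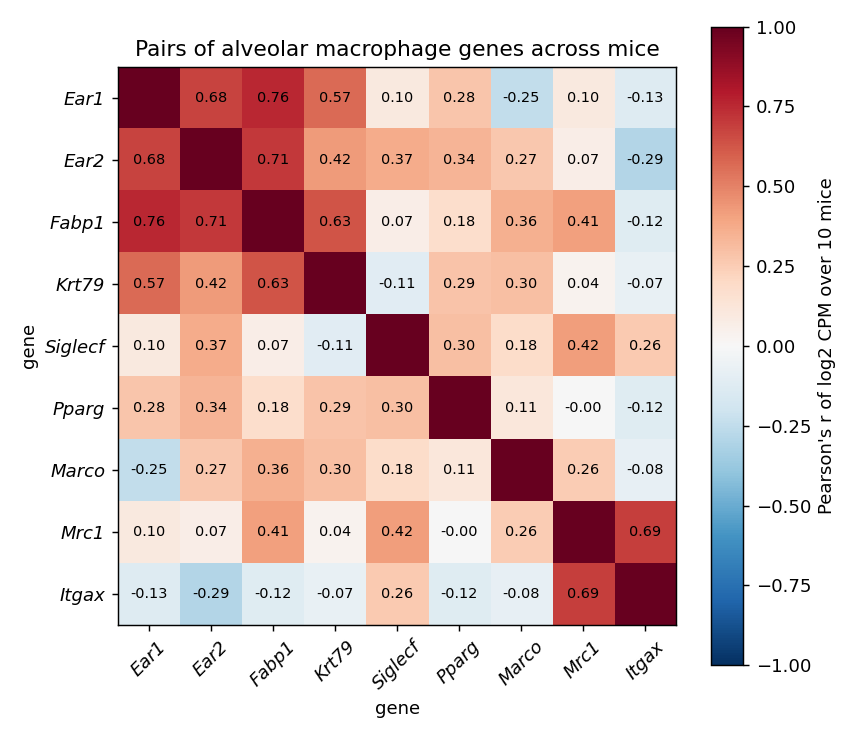
Pearson correlation (colour and number) of log2 CPM over 10 mice for each pair of the 9 genes. The order of the genes was set by hand. Ear1, Ear2, Fabp1 and Krt79 have positive values with each other, from 0.42 to 0.76, and Mrc1 with Itgax reaches 0.69. Leaving out the 2 mice farthest from the median of the first gene named moved the pairs with Krt79. Ear1 with Krt79 fell from 0.57 to 0.03 and Fabp1 with Krt79 from 0.63 to 0.42, while Ear2 with Krt79 rose from 0.42 to 0.73. No pair passed the adjustment.

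Among the 10 tested genes whose levels over the 10 mice were most like the mean of the 9 genes, each first scaled to unit spread, were Mitf (Pearson r 0.90), Gm15868 (0.89), Slc18a1 (0.88), Anpep (0.88), Lamp3 (0.87), Lrrc14b (0.86), Spp1 (0.85), Hs3st3a1 (0.83) and Tinag (0.83). The nearest single gene was Tmem206 for Siglecf (r 0.90), Tmco3 for Ear1 (0.94), Trappc3 for Ear2 (0.94), Tox3 for Pparg (0.93), Cd44 for Mrc1 (0.96), Gm13991 for Itgax (0.90), Galnt13 for Fabp1 (0.87) and 2610028H24Rik for Krt79 (0.91). Each was picked as the highest of 18024 genes over only 10 mice, so these values are descriptions.

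Other genes of the alveolar macrophage program gave no call for genotype in edgeR. Of 25 further alveolar macrophage genes, all tested, 8 were higher and 17 lower in KO lungs, with a median log2 fold change of -0.065. An unadjusted edgeR p under 0.05 was found for 2 of them (Krt19 and Cd9), beside 17% of all tested genes. The 3 with the highest level per kilobase were Chil3, a secreted chitinase-like protein, Cd9, a tetraspanin, and Krt19, a keratin. Their log2 fold changes were -0.24 for Chil3 (edgeR adjusted p 0.39), -0.13 for Cd9 (0.285) and -0.16 for Krt19 (0.244). Together these 25 summed to 1871 to 2157 CPM in KO and 2003 to 2294 CPM in WT mice. In whole lung RNA, how much of these counts came from alveolar macrophages rather than other lung cells was not measured.

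Among 18 signals and factors from GM-CSF and TGF-beta to PPAR-gamma, 9 were higher and 9 lower, with a median log2 fold change of 0.0021. Of the 18, 7 had an unadjusted edgeR p under 0.05, beside 17% of all tested genes. Of these 7, Csf2rb, Csf2rb2, Klf4 and Tgfbr1 were higher in KO lungs, and Spi1, Bhlhe41 and Nr1h3 were lower. The 3 most abundant per kilobase were Cebpb (log2 fold change 0.17), Klf4 (0.41) and Tgfbr2 (-0.0093). Csf2rb, the beta chain of the GM-CSF receptor, was at 48.9 ± 0.743 CPM in KO and 42.8 ± 1.68 CPM in WT (SD, n = 5 each), with ranges that did not overlap and a log2 fold change of 0.19. Ranges did not overlap for 1.88% of all tested genes. Csf2rb2 is a near copy of Csf2rb, so the division of reads between them is uncertain. The edgeR adjusted p of Csf2rb was 0.13, and that of Klf4, a zinc finger factor, 0.134. DESeq2 called both, Csf2rb at an adjusted p of 0.0259 and Klf4 at 0.0086. It called 346 genes in all, where edgeR called 4. Csf2ra, the alpha chain, had a log2 fold change of -0.012 (edgeR adjusted p 0.934).

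Of 20 PPAR-gamma target and lipid-handling genes 8 were higher and 12 lower in KO lungs, with a median log2 fold change of -0.019. The 3 most abundant were Cd36 (log2 fold change -0.016), a fatty acid transporter, Pltp (0.0091), a phospholipid transfer protein, and Npc2 (-0.18), a lysosomal cholesterol carrier. Of the 20, 5 had an unadjusted edgeR p under 0.05, beside 17% of all tested genes. Of these 5, Abca1 was higher in KO lungs, and Npc2, Acadl, Hilpda and Plin2 were lower. Hilpda and Plin2, proteins of lipid droplets, had log2 fold changes of -0.25 (edgeR adjusted p 0.121) and -0.20 (0.124), and DESeq2 called both, at adjusted p of 0.0188 and 0.0079. Of 22 scavenger and lectin receptors other than Marco and Mrc1, 12 were higher and 10 lower, with a median of 0.0083. Stab2 alone of the 22 had an unadjusted edgeR p under 0.05, beside 17% of all tested genes. The most abundant there were Cd36, Cd68 (-0.0096) and Mrc2 (0.096). Stab2, a scavenger receptor of sinusoidal endothelium, was at 2.16 ± 0.268 CPM in KO and 1.05 ± 0.591 CPM in WT (SD, n = 5 each), an edgeR log2 fold change of 0.96 with an adjusted p of 0.121, and DESeq2 called it at 0.0206. Hilpda, Plin2 and Stab2 are among the 346 genes that DESeq2 called, where edgeR called 4.

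In the families of the members themselves, 7 of 8 other Siglec genes were tested, 5 higher and 2 lower, with Cd22 (-0.039), Siglecg (0.024) and Siglece (-0.038) the most abundant on the per-kilobase scale, in log2 fold change. None of 5 further eosinophil-associated RNases passed the filter, and Ear10 and Ear14 were at 0 in all mice. Of 9 other fatty acid binding proteins 4 were tested, 1 higher and 3 lower, led by Fabp3, Fabp5 and Fabp4, with log2 fold changes of -0.064, 0.026 and -0.14. Of the other 4 genes of the beta2 integrin family 3 were higher, Itgb2, the shared beta chain (0.045), Itgal (0.20) and Itgam (0.21), and Itgad was lower (-0.42); the smallest edgeR adjusted p among them was 0.194, for Itgam. Ppard and Ppara were both higher, by 0.11 and 0.18 on the log2 scale, with edgeR adjusted p of 0.278 and 0.571.

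**Figure D5:**
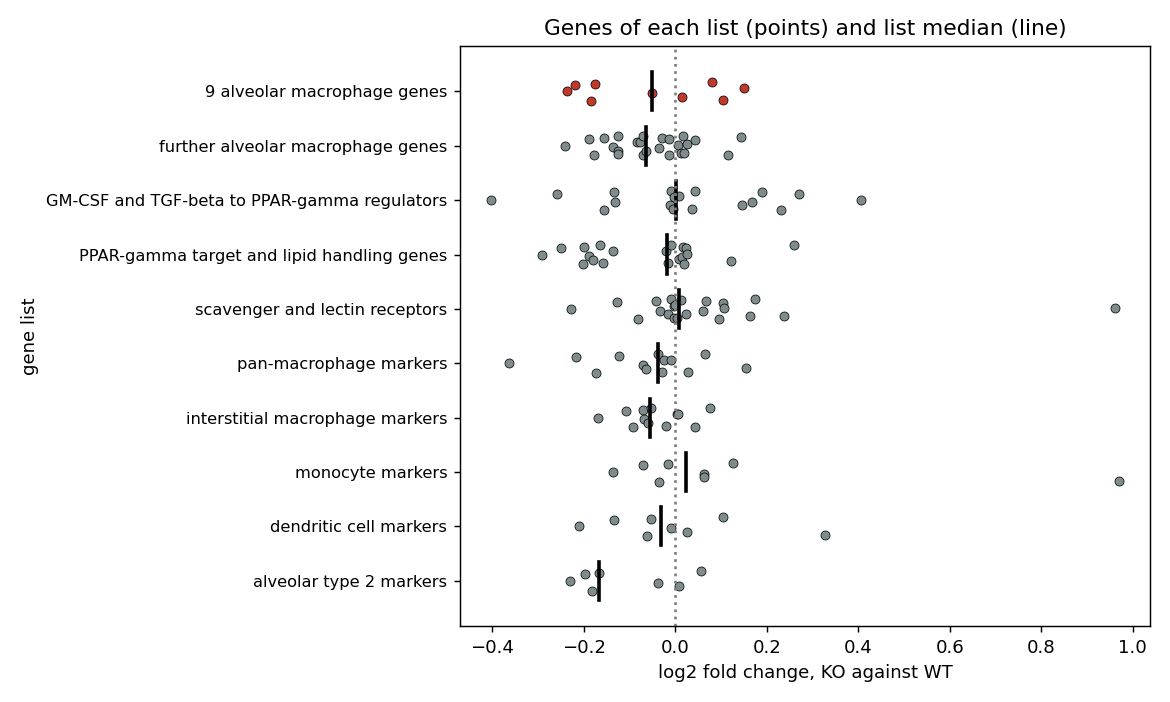
Fitted log2 fold changes of KO against WT (x axis) for the tested genes of each list, 1 point a gene, with the list's median as a bar and the 9 genes in red. The 9 genes lie between -0.24 and 0.15 with a median of -0.05, and no point in the plot was called in this fit, edgeR with the filter on low counts.

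Markers of other cells were measured beside these results. Of 13 pan-macrophage markers 3 were higher and 10 lower in KO lungs, with a median log2 fold change of -0.038, and their summed level was 5948 to 6634 CPM in KO and 6117 to 7203 CPM in WT mice, led by Lyz2, Ctsd and Ctss. Lyz2 alone averaged 5326 CPM over the 10 mice, so the sum mostly follows that 1 gene. At an unadjusted edgeR p under 0.05 stood 4 of the 13 (Lyz2, Aif1, Lgals3 and Ctsd, all lower), beside 17% of all tested genes. Of 12 interstitial macrophage markers 4 were higher and 8 lower, and they summed to 910 to 1016 CPM in KO and 953 to 1027 CPM in WT. Gas6 averaged 473.8 CPM and Lyve1 248.5 CPM over the 10 mice, so this sum mostly follows them. Lyve1 is also among the lymphatic endothelial markers below. The part of these macrophage markers in the results for the 9 genes was not tested. Ptprc, which encodes the leukocyte antigen CD45, was at 127 ± 19.9 CPM in KO and 105 ± 9.23 CPM in WT (SD, n = 5 each), with an edgeR adjusted p of 0.246. Alveolar type 2 cells, which also express Pparg, had 2 of 7 markers higher and 5 lower, with a median log2 fold change of -0.17 and sums of 22560 to 25800 CPM in KO and 23390 to 28270 CPM in WT. Of these 7, 4 had an unadjusted edgeR p under 0.05 (Sftpc, Sftpb, Sftpa1 and Sftpd, all lower in KO lungs), beside 17% of all tested genes.

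Siglecf is shared by alveolar macrophages and eosinophils, and the Ear genes are named after eosinophils. At or near 0 were 3 eosinophil granule genes. Epx and Prg3 had at most 2 counts in any mouse, Prg2 had 2 to 5, and none of these 3 passed the filter. The other 3 eosinophil markers were measured at 0.953 to 4.82 CPM, and all 3 were higher in KO lungs, with log2 fold changes of 0.51 for Ccr3 (unadjusted edgeR p 0.0313, adjusted 0.249), 0.26 for Alox15 (adjusted 0.702) and 0.007 for Il5ra (adjusted 0.991). The 6 together summed to 6.10 to 9.76 CPM in KO and 3.57 to 7.91 CPM in WT, and their part in the results for Siglecf and the Ear genes was not tested. Of 8 dendritic cell markers, relevant to Itgax, 3 were higher and 5 lower, with sums of 102 to 122 CPM in KO and 99.97 to 111 CPM in WT. Of 6 lymphatic endothelial markers, a cell type that also expresses Mrc1, 6 were higher in KO lungs, with a median log2 fold change of 0.11 and sums of 410 to 476 CPM in KO and 388 to 471.5 CPM in WT; their part in the values of Mrc1 was not tested. The 7 adipocyte markers, relevant to Pparg, varied most, from 116 to 265 CPM in KO and from 57.8 to 282 CPM in WT. Liver and gut markers, relevant to Fabp1, summed to 1.38 to 2.81 CPM, with Fgb and Cdx2 at 0. Stratified epithelium markers, relevant to Krt79, summed to 3.62 to 5.70 CPM, of which Krt10 averaged 2.70 CPM over all mice. The part of these cells in the values of Fabp1 and Krt79 was not tested. The monocyte and neutrophil lists had 4 of 8 and 1 of 5 tested markers higher in KO lungs, and none of the markers in these lists was called in edgeR with the filter on low counts. With no filter edgeR called Zbtb46 (log2 fold change 0.32, adjusted p 0.0453). DESeq2 called 4 markers, Nr4a1 (monocytes, log2 fold change 0.97), Zbtb46 (dendritic cells, 0.33), Foxj1 (ciliated cells, 0.23) and Sftpa1 (alveolar type 2 cells, -0.23), among 346 genes in all.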

How the data were processed

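The authors deposited 1 table of estimated counts per Ensembl gene, not scaled between samples (30.1% of non-zero values lay over 0.01 from a whole number). Per the labels' protocols, libraries were made with a KAPA stranded mRNA kit and read as 50-base single reads. The submitters' processing notes name STAR 2.6.0, Salmon 0.9.1, FastQC and MultiQC with builds mm10 and GRCm38, without roles; annotation, strand setting and filters are not given in the sources used here. Symbols and coordinates came from GENCODE M21 by identifier (47281 matched; 52 did not and held 0.00668% of counts). Promoters came from RefSeq.

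Counts were rounded, filtered with filterByExpr by genotype, TMM-scaled and fitted in edgeR 4.0.16 (R 4.3.3) with a robust quasi-likelihood model of genotype and sex over all 10 mice, adjusted over 18024 genes and called at 0.05. The CPM use TMM-scaled totals, and log2 CPM a prior count of 2. SE is the log2 fold change over the square root of F. On simulated data with the same design (17843 genes), 16% of genes changed by 0.3 on the log2 scale were called, 46% at 0.5, 92% at 1 and 94% at 2, and 6.8% of calls were false. The simulation drew each gene independently and changed 50 genes at each size, while the real fit called 4. The adjusted threshold was therefore easier to pass there, and these shares can overstate what the real fit would call. The 9 genes and the other lists were chosen with earlier results of these data known. Named genes were the 9, the 3 of each list with the most CPM per kilobase, called genes, markers at 0, the 10 genes most like the mean of the 9 and the nearest to each, of which 2 are not reported here; others were named after their values were seen. DESeq2 1.42.0, limma-voom (limma 3.58.1), other filters, covariates and left-out mice were alternatives. Totals were 21357424 to 28321294 counts per mouse. The 9 genes had from 107 counts (Fabp1, lowest mouse) to 2045 (Ear2, highest), and edgeR's estimate of their variation between mice beyond counting error was 6.33% (Itgax) to 17.5% (Fabp1).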

Additional observations from a re-analysis of the deposited data

Results flagged for a closer look

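The KO, WT and female mice were each examined for a mouse far from the rest, for the 9 genes, Bpifb1 and the summed level of each list. Of these 99 sets 2 held one, where chance gives about 1 in 20, or 4.95. The summed level of the pan-macrophage markers in WT replicate 3, a male, was 6117 CPM, against 6896 to 7203 CPM in the other WT mice. In the KO mice it was 5948 to 6634 CPM. That sum mostly follows Lyz2. WT replicate 3 was also the lowest WT mouse for the summed alveolar type 2 markers, at 23390 CPM, with the highest WT mouse at 28270 CPM. Whether these low sums are related was not tested. The summed level of the stratified epithelium markers in KO replicate 5 was 5.45 CPM, against 3.62 to 3.90 CPM in the other KO mice. KO replicate 5 was also the highest KO mouse for Krt79, at 19.1 CPM, and a link between them was not tested. None of the 9 alveolar macrophage genes had such a mouse.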

How the results depend on the processing

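No paired analysis was possible because replicate numbers were given in accession order and the labels pair no mice. None of the 9 genes was called in either comparison under any setting run. These included DESeq2, limma-voom, an adjusted p under 0.1 and each mouse left out. In the main edgeR fit 1 of the 9 had an unadjusted p under 0.05 in each comparison. For genotype that number reached 3 in females alone and without KO replicate 1, settings that compare the same females. The count of all genes called for genotype was 4, and became 50 with no filter on low counts, 346 with DESeq2, 2 with limma-voom, 57 at an adjusted p under 0.1, and 2 to 18 with 1 mouse left out (18 without WT replicate 3; 2 without KO replicate 2, 4 or 5 or WT replicate 1). For sex it was 105, and became 197 with no filter, 436 with DESeq2, 41 with no genotype covariate, 351 at an adjusted p under 0.1, and 0 to 195 with 1 mouse left out. It was 0 without KO replicate 1, the only KO male, where 1919 genes had an unadjusted p under 0.05; it was 46 without KO replicate 2, 43 without WT replicate 2 and 195 without WT replicate 4. The log2 fold change for genotype turned sign for Marco in females alone (-0.0298) and without KO replicate 1 (-0.0293). These settings are not separate, because KO replicate 1 was the only KO male and the same females are compared. With 1 mouse left out, Marco reached up to 0.2034. For Siglecf the sign turned without KO replicate 4 (-0.0349), WT replicate 2 (-0.0052) or WT replicate 5 (-0.0103), with values up to 0.0444. The log2 fold change for sex turned sign for Siglecf without KO replicate 4 (0.0094), WT replicate 2 (0.0187) or WT replicate 4 (0.0047), with values down to -0.0486. For Ear2 it turned without WT replicate 3 (0.0399), with values down to -0.2725. With the Ear genes counted as 1, a setting chosen after seeing the data, the log2 fold change for sex was -0.0036. Most counts of that sum are from Ear2, so it is not a value of Ear1 alone. The log2 fold change of Fabp1 for sex turned with limma-voom (-0.0023) and without KO replicate 1 (-0.3147), KO replicate 2 (-0.0376), KO replicate 3 (-0.0178), KO replicate 4 (-0.0051) or WT replicate 1 (-0.0706), with values up to 0.1216. The cause of these changes was not tested. Fabp1, at 4.51 to 8.38 CPM, has the fewest counts of the 9 and the widest interval.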
